A study of Mus musculus with 3 samples.

Results

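The genes described here are 8 chemokines that draw neutrophils and monocytes into tissue and receptors by which these cells read such signals: Cxcl1, Cxcl2, Cxcl3 and their receptor Cxcr2, Ccl2, Ccl7 and Ccl8, the monocyte receptor Ccr2, and Ccl3 and Ccl4. They were taken by symbol from the feature list, as 10 of its 34289 features. They were followed through single-cell RNA libraries of mouse ear epidermis enriched for Langerhans cells, the antigen-presenting cells that live in the epidermis.

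There were 3 libraries, 1 per treatment, all from male mice of the strain labelled Cd1, and the labels do not say how many animals went into each. The untreated animals received only the depilatory cream Nair, the second group received acetone, croton oil (an irritant plant oil) and olive oil, and the third was given multiple microneedle punches, with the tissue of both treated groups taken 48 hours after treatment began. The epidermal sheet was loosened with trypsin and dissociated by hand, dead cells were taken out on magnetic beads, and Langerhans cells were enriched magnetically before polyA RNA was captured by the Chromium 3' assay. The enrichment sets the make-up of each suspension, so shares of cells below are shares of what was left after it. With 1 library per treatment there is no replicate, no test between treatments was possible, and treatment, animals and library cannot be told apart.

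Chemokines are small secreted proteins that bind G protein-coupled receptors on leukocytes. Cxcl1, Cxcl2 and Cxcl3 act on Cxcr2, which neutrophils carry and which guides their exit from blood into inflamed skin. Ccl2, Ccl7 and Ccl8 attract monocytes, with Ccr2 as the main receptor of the first of these, and Ccl3 and Ccl4 attract monocytes and other leukocytes, Ccl3 in part through Ccr1. Epithelial cells, macrophages and neutrophils themselves are known sources of these proteins.

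The 3 libraries held 9876 barcodes (untreated), 8241 (croton oil) and 6945 (microneedle), with median depths of 11623, 12509 and 16427 unique molecular identifiers (UMIs, each standing for 1 captured RNA molecule), and 9054, 7626 and 6479 cells were retained. Untreated and croton oil libraries shared 32 barcodes, untreated and microneedle 17, and croton oil and microneedle 13; leaving these cells out changed none of the calls given below. Langerhans cells were defined by a gate, with Cd74, H2-Aa, H2-Ab1 and H2-Eb1 making up at least 2% of a cell's UMIs and at least 2 UMIs of Epcam. The gate held 8652 untreated, 5920 croton oil and 5290 microneedle cells, or 95.6%, 77.6% and 81.65% of the retained cells, and all 9 Langerhans markers reached 20 CPM (counts of a gene's UMIs scaled to the same total for every summed set of cells) in each library. Different clusters held most of the gate in each library (cluster 0 untreated, cluster 1 croton oil, cluster 2 microneedle), so every Langerhans value below compares those populations.

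Cells outside the gate were named from marker genes, in a clustering from which the 10 genes and their pathway lists had been left out. Neutrophil-like cells (11 of 11 markers, written as neutrophils below) numbered 1 in the untreated, 213 in the croton oil and 396 in the microneedle library. Monocyte- or macrophage-like cells (written as macrophages) numbered 3, 6 and 384, so that only the microneedle library had enough for a level. Keratinocyte-like cells (written as keratinocytes) numbered 239, 225 and 100, and their summed libraries also carried all 9 Langerhans markers, at a summed 8356, 5176 and 7316 CPM against 49232.5, 55504 and 50176 CPM in Langerhans cells. A cluster led by Fscn1 and Ccr7, genes of dendritic cells that are leaving the tissue, had 28 untreated, 1000 croton oil and 197 microneedle cells, of which 21, 262 and 35 lay inside the gate and 7, 738 and 162 outside it, and held 8 of the 9 Langerhans markers. Neutrophils were shallow, at a median of 3046 and 3262.5 UMIs in the treated libraries, macrophages had 6761.5, and keratinocytes 24704, 49270 and 26737.5. A feature named mCherry was among the leading genes of the keratinocyte cluster, and no label names a transgene.

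The 3 Cxcr2 ligands lie close together on chromosome 5 of build GRCm39, at chr5:91039094-91040974 (Cxcl1), chr5:91051730-91053797 (Cxcl2) and chr5:90933962-90937459 (Cxcl3), each a protein-coding gene with 4 exons in its canonical transcript. The 5 CC chemokines, with 3 exons each, lie on chromosome 11, Ccl2 at chr11:81926397-81928279, Ccl7 at chr11:81936532-81938351, Ccl8 at chr11:82006007-82007625, Ccl3 at chr11:83538670-83540191 on the minus strand and Ccl4 at chr11:83553383-83555509. Both receptor genes have 2 exons, Cxcr2 at chr1:74193150-74200405 and Ccr2 at chr9:123901982-123913594. Of the 10 genes 7 had a promoter sequence in the RefSeq table used here (build GRCm38.p6); Ccl2, Ccl7 and Ccl4 had none. The last 120 bases before the start of the 3 Cxcr2 ligands are shown because 2 of these genes were higher in Langerhans cells of both treated libraries while the third was near 0 in all. Capitals mark the letters GGAATTTCC, a form of the site bound by NF-kappaB, and ATAAAAGG, a form of the TATA box; the stretches are chr5:90891125-90891244, chr5:90903779-90903898 and chr5:90785981-90786100, all on the plus strand.
Cxcl1: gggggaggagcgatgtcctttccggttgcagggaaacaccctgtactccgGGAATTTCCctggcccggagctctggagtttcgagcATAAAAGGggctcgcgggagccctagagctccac
Cxcl2: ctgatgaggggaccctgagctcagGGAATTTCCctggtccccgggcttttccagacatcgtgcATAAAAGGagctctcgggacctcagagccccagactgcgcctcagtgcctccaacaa
Cxcl3: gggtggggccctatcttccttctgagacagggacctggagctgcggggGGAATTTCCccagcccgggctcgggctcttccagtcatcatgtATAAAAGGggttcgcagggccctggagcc

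Counted from the annotated start, GGAATTTCC began at -70 in Cxcl1, -96 in Cxcl2 and -72 in Cxcl3, and ATAAAAGG at -34, -57 and -29. Both were searched on both strands in the 250 bases before each start. GGAATTTCC was present in 94 of 32851 promoters of that length (0.286%) and ATAAAAGG in 507 (1.54%). In the Ccl8 promoter ATAAAAGG began at -31 and GGAATTTCC was not found, and neither was found in those of Cxcr2, Ccl3 and Ccr2. A match describes the letters of this window and is no evidence of binding, and no match says nothing about the factor. Cxcl3 carried the same letters as its neighbours, and its level in Langerhans cells was under 2 CPM in all 3 libraries.

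Levels are given as CPM with exact Poisson 95% intervals, which cover counting error only and not the difference between animals. A change is the log2 ratio of 2 levels after 5 CPM was added to each, log2((CPM + 5)/(CPM + 5)), which makes the changes of low genes look smaller. A gene entered a comparison with at least 20 CPM in 1 of its libraries and was called at a change of at least 2-fold. Both treated libraries were set against the same untreated library, so their changes are not independent of each other.

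Cxcl1 and Cxcl2 were both higher in Langerhans cells of the treated ears, more so after croton oil than after microneedles. Cxcl1, a neutrophil attractant first known as KC, was at 19.6 CPM (95% interval 18.8 to 20.4) in Langerhans cells of the untreated library, 124 CPM (121 to 126) after croton oil and 60.8 CPM (59.3 to 62.4) after microneedles. The 3 intervals lay far apart. The change was 2.39 on the log2 scale after croton oil and 1.42 after microneedles. Cxcl2, also known as MIP-2, was at 239 CPM (236 to 242), 1231.5 CPM (1224 to 1239) and 643 CPM (638 to 648) in the same order, a change of 2.34 and 1.41. For both genes the alternatives of filter, scaling and gate kept the direction and the call, with Cxcl1 between 2.29 and 2.60 after croton oil and between 1.36 and 1.59 after microneedles, and Cxcl2 between 2.30 and 2.44 and between 1.36 and 1.55.

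**Figure D1:**
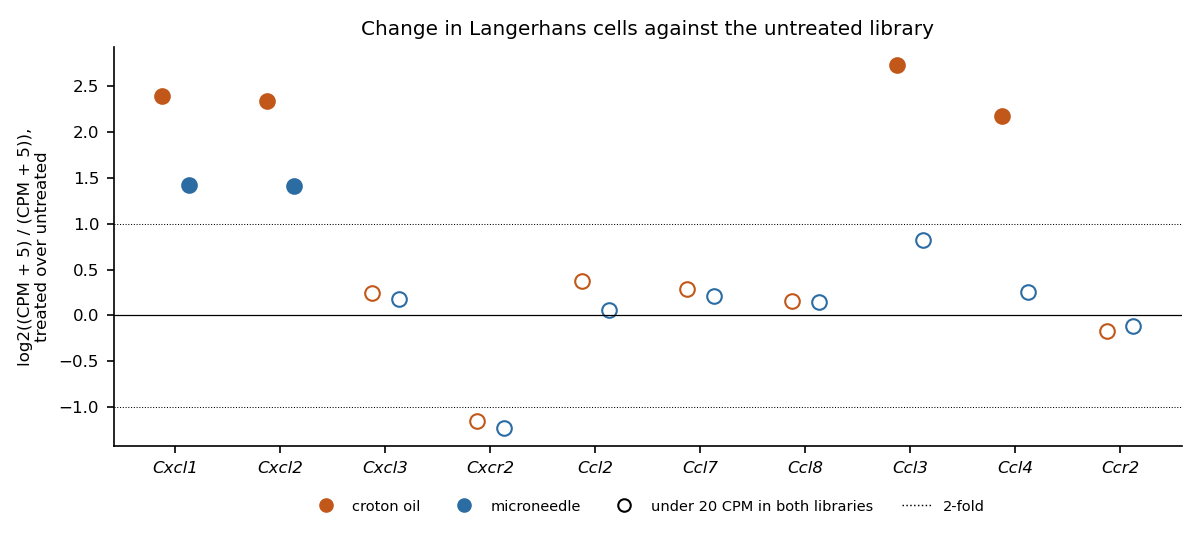
Change of each gene in Langerhans cells against the untreated library, on the log2((CPM + 5)/(CPM + 5)) scale, with croton oil in orange and microneedle in blue. Open points were under 20 CPM in both libraries and were not called; the dotted lines mark 2-fold. Cxcl1 and Cxcl2 lie above the line for both treatments, and Ccl3 and Ccl4 are filled and above it for croton oil only.

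Of the 10 genes 4 passed the filter after croton oil (Cxcl1, Cxcl2, Ccl3 and Ccl4), each at least 2-fold higher in Langerhans cells, where 5.48% of the 6839 genes tested were higher and 5.48% lower. Of these 4, Cxcl1, Ccl3 and Ccl4 were under 20 CPM in the untreated library and passed only through their croton oil level, so the filter fixed their direction, and a gene lower than 20 CPM in both libraries, such as Cxcr2, could not enter. After microneedles 2 of the 10 passed, Cxcl2 and, through its microneedle level, Cxcl1, and both were higher, where 3.91% of the 6703 genes tested were higher and 1.76% lower. Set directly against each other, croton oil exceeded microneedle at least 2-fold for 2 of the 4 genes that passed, Ccl3 and Ccl4, where 1.58% of 6640 genes were higher and 1.02% lower; both passed only through their croton oil level. In that comparison Cxcl1 differed by 0.97 and Cxcl2 by 0.93, just under 2-fold, and with TMM scaling, which moved this comparison as a whole by 0.13, they differed by 1.09 and 1.06. Cxcl1 also passed 2-fold with 1 CPM added in place of 5 (1.01), with the gate at 1% of UMIs (1.03) and without doublet removal (1.01).

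More Langerhans cells also held Cxcl1 and Cxcl2 at equal depth. Cells were thinned to 2000 UMIs, and shallower ones were left out: 43, 14 and 34 Langerhans cells, 22, 12 and 10 keratinocytes, 25 and 37 neutrophils of the treated libraries and 56 microneedle macrophages. In the remaining cells Cxcl1 was found in 2.08% of untreated, 9.70% of croton oil and 5.75% of microneedle Langerhans cells, and in 4.73%, 18.0% and 13.4% before thinning. Cxcl2 was found in 14.3%, 48.5% and 33.1% of thinned cells, and in 26.7%, 68.7% and 59.8% before thinning. Median depth before thinning was 11514.5, 12581 and 17346 UMIs. In keratinocytes of the same libraries thinned shares were 5.53%, 12.2% and 5.56% for Cxcl1 and 0.922%, 9.86% and 10.0% for Cxcl2.

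Expression was uneven among Langerhans cells. The 1% of cells with most Cxcl1 held 61.65% of its UMIs in the untreated, 29.3% in the croton oil and 38.8% in the microneedle library, and for Cxcl2 these shares were 23.6%, 10.3% and 12.05%. Cells with 10 or more UMIs of Cxcl2 made up 8.54%, 39.0% and 27.0%. The same cells tended to carry both: Cxcl2 was found in 80.4%, 93.4% and 87.0% of Langerhans cells with Cxcl1 and in 24.1%, 63.3% and 55.6% of those without. Cells with Cxcl1 were somewhat deeper, at a median of 13722 against 11411 UMIs, 13240 against 12466 and 18387 against 17216.

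Within the gate the levels differed by cluster. The main cluster of each library had Cxcl1 at 17.6 CPM (cluster 0, 7427 untreated cells), 127 CPM (cluster 1, 4702 croton oil cells) and 62.9 CPM (cluster 2, 3949 microneedle cells), and Cxcl2 at 240.4, 1375 and 699.6 CPM. Clusters led by the heat-shock genes Hsph1, Hspa1a and Hspa1b had less: cluster 5 of the untreated library (832 cells) had 2.83 CPM of Cxcl1 and 55.0 CPM of Cxcl2, and cluster 3 had 17.7 and 348 CPM in croton oil (750 cells) and 18.9 and 295 CPM in microneedle cells (648 cells). Gate cells of the Fscn1 and Ccr7 cluster in croton oil (262 cells) had the most Cxcl1 among the croton oil clusters, 407 CPM. Some cells of a library fell into the main cluster of another. In cluster 2 the 98 untreated cells had 44.3 CPM of Cxcl1 and 785 CPM of Cxcl2 and the 100 croton oil cells 35.7 and 585.5 CPM, while the microneedle cells there had 62.9 and 699.6 CPM. Untreated cells of this cluster thus had less Cxcl1 but more Cxcl2 than microneedle cells. The 94 microneedle cells in cluster 1 had 126 CPM of Cxcl1, near the 127 CPM of the croton oil cells there. Their Cxcl2 was at 1679 CPM, above the 1375 CPM of those cells. The 349 microneedle cells in cluster 0 had 13.7 CPM of Cxcl1 and 247 CPM of Cxcl2, near the untreated ones.

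**Figure D2:**
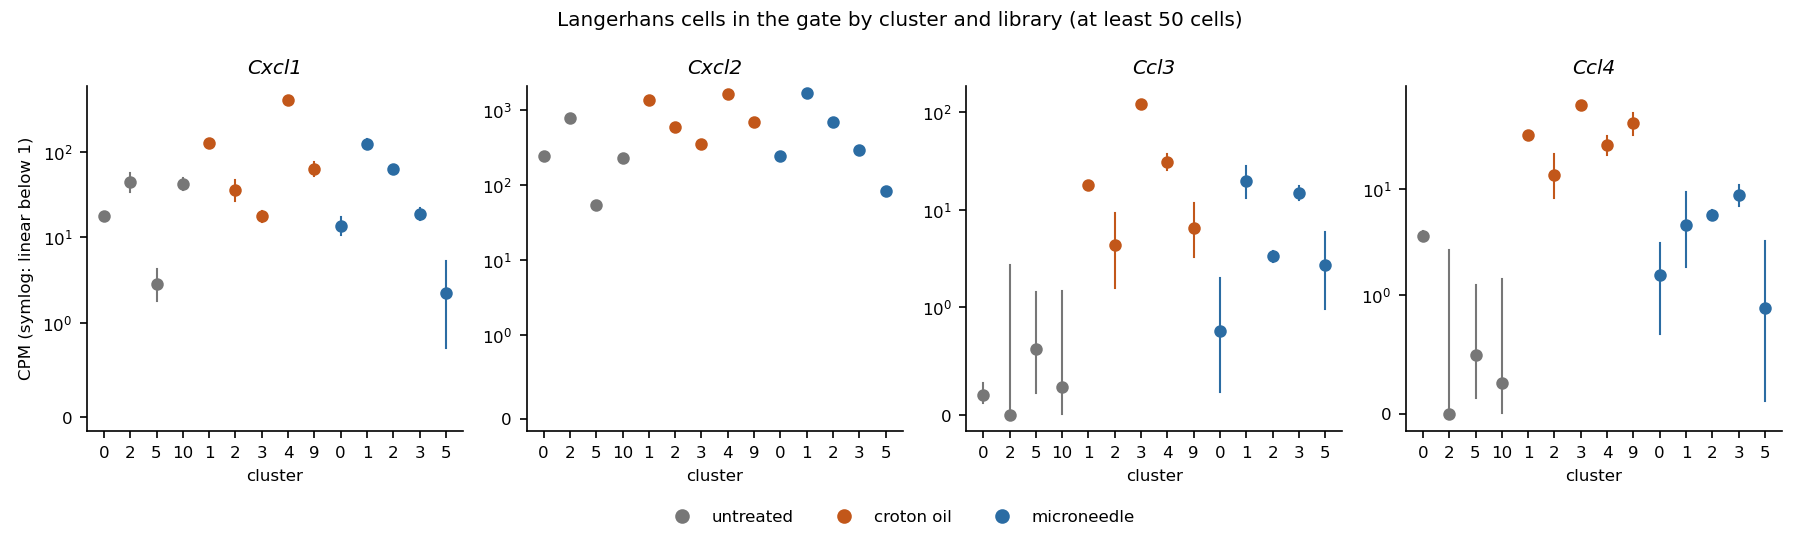
Level of Cxcl1, Cxcl2, Ccl3 and Ccl4 (CPM, log axis that is linear below 1) in each cluster of gated Langerhans cells with at least 50 cells, by library; bars are exact Poisson 95% intervals. Clusters 3 and 5, led by heat-shock genes, are low for Cxcl1 and Cxcl2, and cluster 3 of the croton oil library is the highest for Ccl3 at 121 CPM.

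Cxcl3, the third Cxcr2 ligand, was near 0 in Langerhans cells and high in the infiltrate. It was at 0.270 CPM in untreated (29 UMIs), 1.23 CPM in croton oil (100 UMIs) and 0.972 CPM in microneedle Langerhans cells (94 UMIs), too low to be called; without doublet removal the treated levels were 4.925 and 5.615 CPM, with the gate at 1% of UMIs they were 3.16 and 2.00 CPM, and the untreated level was 0.170 CPM with the gate at 4% and 0.0753 CPM with it limited to Langerhans-like clusters. In neutrophils it was at 1512 CPM after croton oil (1425.5 to 1602) and 1753 CPM after microneedles (1689 to 1819), and in microneedle macrophages at 495 CPM (469.5 to 522). The Fscn1 and Ccr7 cells outside the gate had 51.9 CPM after croton oil and 15.1 CPM after microneedles. Keratinocytes had none in 239 untreated cells, which allows up to 0.613 CPM by the upper bound of the interval, and 6.78 and 2.90 CPM after treatment.

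Cxcr2, the receptor of all 3 ligands, was a gene of the neutrophils and was low in Langerhans cells, where it was lowest after treatment. Neutrophils had 892 CPM (826 to 962) after croton oil and 858 CPM (814 to 905) after microneedles, and thinned to equal depth 69.7% and 73.3% of them held a UMI. The 2 libraries differed by -0.06 on the log2 scale. Macrophages of the microneedle library had 50.9 CPM, held by 22 of 384 cells, but 0.917 CPM when single cells were gated by markers in place of the cluster. Keratinocytes had 12.3, 17.4 and 12.2 CPM in the untreated, croton oil and microneedle libraries.

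Langerhans cells had 9.08 CPM of Cxcr2 (8.52 to 9.67) in the untreated library, 1.33 CPM (1.09 to 1.60) after croton oil and 1.00 CPM (0.814 to 1.22) after microneedles. The untreated interval lay above both others, though all 3 levels were under the filter of 20 CPM and were not called. The untreated UMIs were spread over 688 cells, with at most 10 in a cell, and thinned to equal depth 2.01% of untreated, 0.169% of croton oil and 0.152% of microneedle Langerhans cells held one (7.95%, 1.28% and 1.25% unthinned). The untreated library held 1 neutrophil. Of the 11 neutrophil markers 3 reached 20 CPM in its Langerhans cells, with a summed 2790 CPM over the list and Retnlg and Ly6g at 0. In the treated libraries 5 (croton oil) and 3 (microneedle) reached it in Langerhans cells, with a summed 2956 and 4200 CPM and none at 0. Without doublet removal the treated Langerhans levels of Cxcr2 were 3.13 and 3.23 CPM, over 1.5 times those given. Its main cluster and its heat-shock cluster had similar levels, 8.91 and 10.2 CPM. Thinned untreated keratinocytes held Cxcr2 in 1.84% of cells, close to the share in Langerhans cells, and had 12.3 CPM against 9.08 CPM. Keratinocyte markers in untreated Langerhans cells were at 0.394% to 1.85% of their keratinocyte level. The untreated neutrophil, with 784 UMIs, held none of Cxcr2. Free RNA as a source of these UMIs was not tested.

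In neutrophils Cxcl2 and Cxcl3, 2 of the Cxcr2 ligands, were also high. Cxcl2 reached 14097 CPM (13831 to 14366) after croton oil and 24758.5 CPM (24517 to 25002) after microneedles, found in 91.0% and 100% of thinned neutrophils, a difference of 0.81 on the log2 scale. Cxcl3 was found in 35.1% and 58.5%. Cxcl1 was at 36.8 CPM (24.5 to 53.2) after croton oil, 28 UMIs in 213 cells, and at 349.5 CPM (321 to 379.5) after microneedles, 568 UMIs in 396 cells. Of the 7 genes that passed the filter in neutrophils, Cxcl1 was at least 2-fold higher after microneedles (3.08) and Ccl2 lower (-1.62), where 11.5% of the 5283 genes tested were higher and 11.8% lower. Ccl2, at 4.31 against 23.7 CPM, passed only through its croton oil level, so the filter fixed its direction. Under a per-cell gate for neutrophils in place of the cluster the Cxcl1 difference was 0.82, short of 2-fold, and that of Ccl2 was 2.69, the opposite direction. Ccl7, under the filter with the cluster, differed by 4.97 under that gate, and 2 members in place of 1 were at least 2-fold higher. Without the 5 highest cells of each library the Ccl2 difference was 0. The reported Ccl2 value rests on 18 UMIs in 5 croton oil neutrophils and 7 UMIs in 3 microneedle neutrophils. Leaving out 5 cells of each library thus left no Ccl2 UMI to compare.

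**Figure D3:**
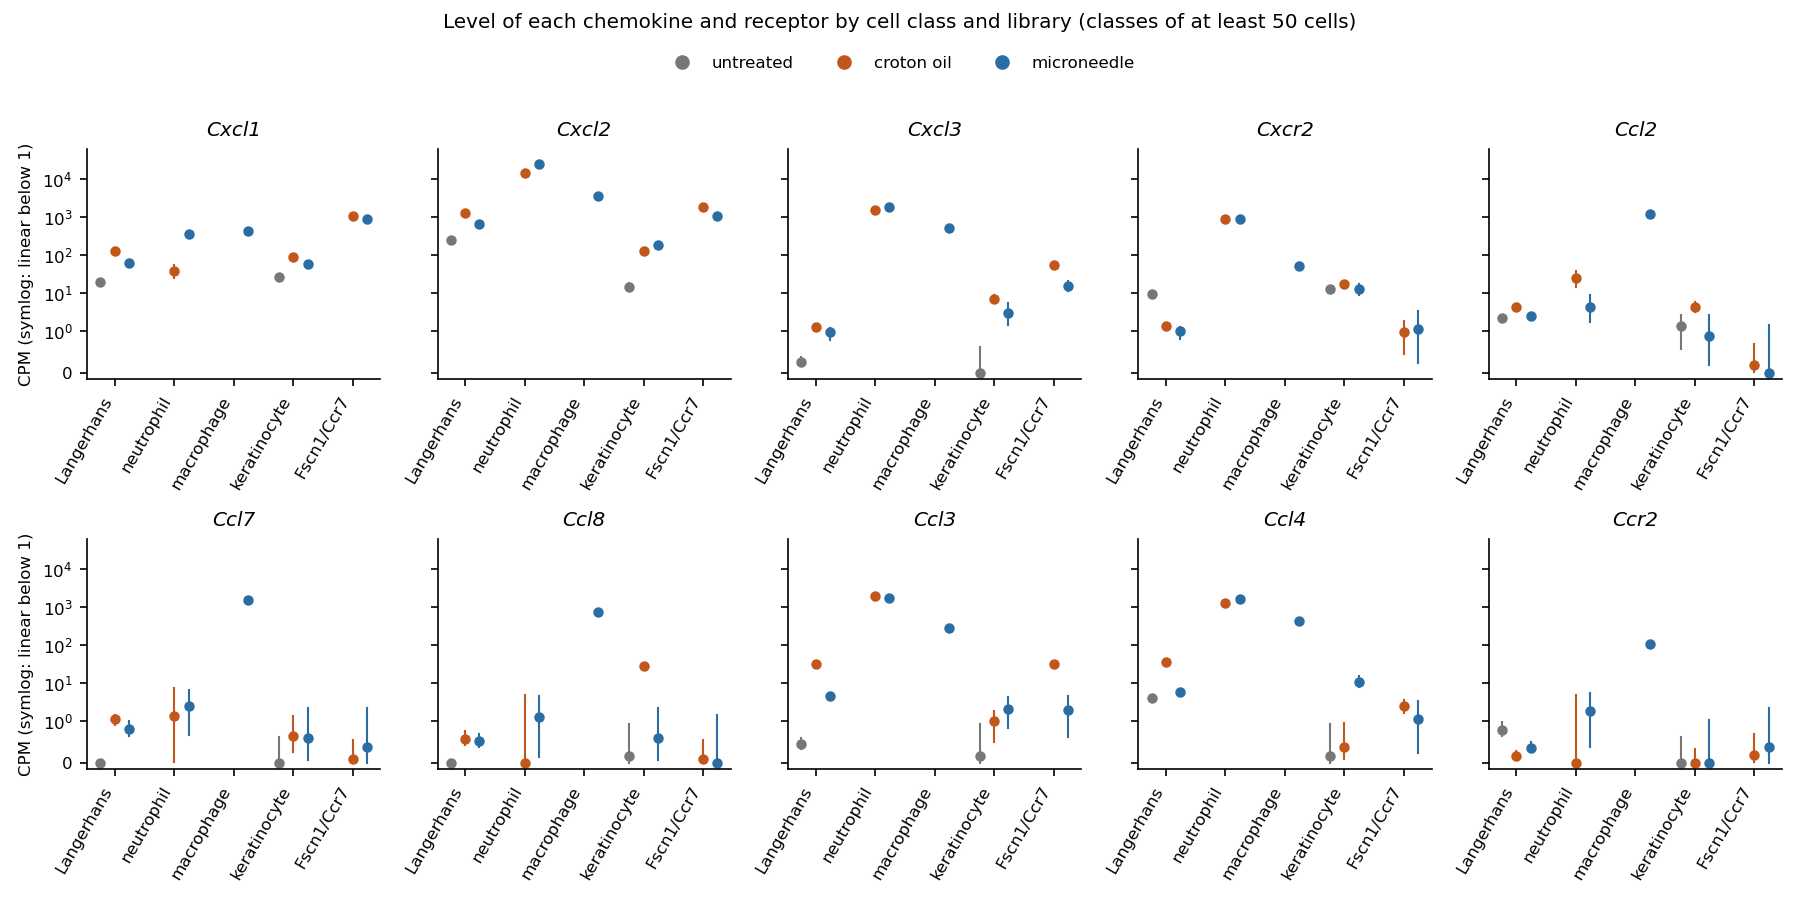
Level of each gene (CPM, log axis that is linear below 1) by cell class, with untreated in grey, croton oil in orange and microneedle in blue; bars are exact Poisson 95% intervals, and only classes with at least 50 cells are drawn. Cxcl2, Cxcl3, Cxcr2, Ccl3 and Ccl4 are highest in neutrophils and Ccl2, Ccl7, Ccl8 and Ccr2 in microneedle macrophages. Cxcl1 is highest in the Fscn1 and Ccr7 cells outside the gate.

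Among classes of at least 50 cells, Cxcl1 was highest in the Fscn1 and Ccr7 cells outside the gate. It was at 1065 CPM (1045 to 1085) there after croton oil and 859.7 CPM (825 to 896) after microneedles. Their cluster held 8 of the 9 Langerhans markers and was split by the gate, so they are not shown to be another cell type. Cxcl1 was found in 465 of the 738 croton oil cells of this class. At equal depth it was found in 46.2% of them against 9.70% of gated Langerhans cells of the same library. Cxcl2 was at 1745 and 1025 CPM there, 142% of the Langerhans level after croton oil, where Cxcl1 was at 862%. The 8 Langerhans markers compared were at 15.3% to 52.0% of their Langerhans level in these croton oil cells. Leaving the gate cells of this cluster out of the Langerhans cells left the Cxcl1 change after croton oil at 2.29.

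The monocyte attractants had another distribution: Ccl2, Ccl7 and Ccl8 were genes of the macrophages of the microneedle library. Ccl2, also known as MCP-1, was at 1198 CPM there (1157.5 to 1239), in 247 of 384 cells. Ccl7 was at 1467 CPM (1423 to 1513), in 230 cells, and Ccl8 at 721 CPM (690.3 to 753.5), in 68 cells. Ccl7 was found in 85.0% of macrophages with Ccl2 and in 14.6% of those without, whose median depths were 7579 and 4641 UMIs. Ccl8 was in fewer cells, and 47.4% of the Ccl8 UMIs were in 5 cells. Macrophages with Ccl8 held Ccl7 in 86.8% of cells against 54.1% of those without, Ccl2 in 79.4% against 61.1%, and Cxcl1 in 22.1% against 45.25%, at median depths of 7419.5 and 6620 UMIs.

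In Langerhans cells these 3 genes were under 5 CPM in every library. Ccl2 was at 2.12 CPM (1.85 to 2.41) untreated, 4.24 CPM (3.81 to 4.71) after croton oil and 2.39 CPM (2.09 to 2.72) after microneedles. The croton oil interval lay above the others, at a level too low to be called. Of its 345 UMIs 82.0% were in 60 cells, while the interval takes UMIs as independent. Heat-shock cluster 3 had 10.6 CPM in croton oil, and the main croton oil cluster 2.86 CPM. Before thinning, 122 of 5920 croton oil and 138 of 5290 microneedle cells held a UMI. Without doublet removal the microneedle level was 4.29 CPM, and the order of the treated libraries under that setting is not given here. Ccl7 and Ccl8 had no UMI in the 8652 untreated Langerhans cells, which allows up to 0.0343 CPM. After croton oil Ccl7 was at 1.12 CPM, of which 73 of 91 UMIs lay in 1 cell, and after microneedles at 0.807 CPM, 78 UMIs in 72 cells with at most 4 in a cell. Ccl7 after croton oil was at 0.176 CPM with the gate at 4% of UMIs and 0.202 CPM with it limited to Langerhans-like clusters, and after microneedles at 2.54 CPM without doublet removal. Ccl8 was at 0.578 and 0.517 CPM. Its croton oil level was 2.56 CPM with the gate at 1% of UMIs, 0.256 CPM at 4% and 0.228 CPM in Langerhans-like clusters, and its microneedle level 0.217 CPM at 4%.

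Ccr2, the receptor of classical monocytes, was at 107 CPM (95.0 to 119.5) in microneedle macrophages, in 99 of 384 cells and 13.7% at equal depth. It was at 0.790, 0.160 and 0.362 CPM in Langerhans cells, and 28 of the 85 untreated UMIs there were in 1 cell. With the gate at 4% of UMIs the untreated level was 0.341 CPM and in Langerhans-like clusters 0.339 CPM. No UMI of Ccr2 was found in keratinocytes of any library or in croton oil neutrophils. Of the 23 croton oil Ccr2 UMIs 13 were in Langerhans cells and 7 in T cell-like cells, which were 1.77% of the cells. In croton oil only 6 macrophages were retained, with no Ccr2 UMI, and these held 49 UMIs of Ccl2, 86 of Ccl7 and 87 of Ccl8, each in 2 cells. A macrophage level of the ligands and of the receptor could thus be given for 1 library only.

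Ccl3 and Ccl4, also known as MIP-1 alpha and MIP-1 beta, were neutrophil and macrophage genes that were also higher in croton oil Langerhans cells. Neutrophils had 1855 CPM of Ccl3 (1759.5 to 1954) after croton oil and 1653.5 CPM (1591.5 to 1717) after microneedles, and 1238 CPM (1160.2 to 1319.7) and 1586 CPM (1525 to 1648) of Ccl4. Both genes differed by less than 2-fold between the libraries there, by -0.17 and 0.36. Microneedle macrophages had 267.5 CPM of Ccl3 and 416 CPM of Ccl4.

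In Langerhans cells Ccl3 was at 0.446 CPM (0.329 to 0.592) untreated, 31.05 CPM (29.85 to 32.3) after croton oil and 4.59 CPM (4.175 to 5.04) after microneedles. Ccl4 was at 4.05 CPM (3.68 to 4.45), 35.75 CPM (34.5 to 37.1) and 5.81 CPM (5.34 to 6.31). Without doublet removal the microneedle levels were 8.84 CPM of Ccl3 and 11.8 CPM of Ccl4, and untreated Ccl3 was at 0.226 CPM with the gate limited to Langerhans-like clusters. After croton oil the changes were 2.73 and 2.17, and croton oil exceeded microneedle by 1.91 for each gene. At equal depth Ccl3 was found in 0.0813%, 2.95% and 0.761% of Langerhans cells and Ccl4 in 0.360%, 2.57% and 0.666%; before thinning these were 0.231%, 7.96% and 3.42%, and 1.32%, 5.68% and 2.95%.

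A few cells held most of these UMIs. The 1% of croton oil Langerhans cells with most Ccl3 held 58.1% of it, and for Ccl4 the share was 66.3%. Cluster 3, led by heat-shock genes and with Ccl3 among its leading genes, had 121 CPM of Ccl3 and 61.2 CPM of Ccl4 in croton oil, against 17.8 and 32.5 CPM in the main croton oil cluster. Ccl4 was found in 22.5% of croton oil Langerhans cells with Ccl3 and in 4.22% of those without. Without the heat-shock clusters Ccl3 was under the filter in croton oil, with a change of 2.13, and the count of genes at least 2-fold higher was 3 in place of 4. The part of the heat-shock genes in the Ccl3 value was not tested.

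RNA that broken cells release is caught in all droplets and keeps the genes of 1 source in about 1 ratio, so the level of each gene in Langerhans cells was set against that in neutrophils beside the same ratio for neutrophil markers. In croton oil 10 neutrophil markers had a median of 0.114% of their neutrophil level in Langerhans cells, with a range of 0.0235% to 13.3% (Mxd1 the highest). Cxcr2 was at 0.149% and Cxcl3 at 0.0813%, close to that median. Ccl3 was at 1.67%, Ccl4 at 2.89%, Cxcl2 at 8.74% and Cxcl1 at 335%, all above the median. Of the 10 markers 1 lay above Cxcl2, 1 above Ccl4, 2 above Ccl3 and none above Cxcl1. Ccl2 was at 17.9%, above all markers, on 18 UMIs in neutrophils. In the untreated library, with 1 neutrophil, 3 of 11 neutrophil markers reached 20 CPM in Langerhans cells, so the marker range cannot be read as free RNA. The part of free RNA in these levels was not tested. The Cxcl1 ratio rests on 28 UMIs in neutrophils; with single neutrophils gated by markers their Cxcl1 was at 210 CPM, above the 124 CPM of Langerhans cells. In the microneedle library the marker median was 0.109% (0.0102% to 20.3%, Mmp9 the highest), with Cxcr2 at 0.117%, Cxcl3 at 0.0555%, Ccl3 at 0.278%, Ccl4 at 0.367%, Cxcl2 at 2.60% and Cxcl1 at 17.4%.

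**Figure D4:**
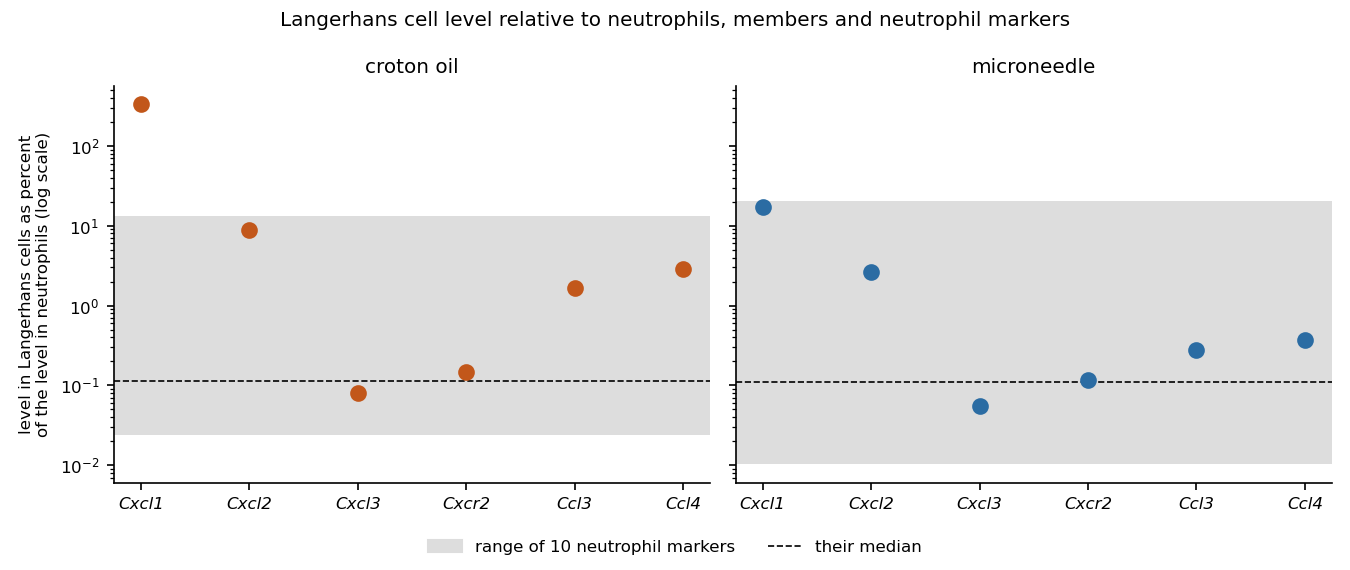
Level in Langerhans cells as a percentage of the level in neutrophils of the same library (log axis); the grey band is the range of 10 neutrophil markers and the dashed line their median. Cxcr2 and Cxcl3 sit near the line, and Ccl3, Ccl4, Cxcl2 and Cxcl1 above it in both libraries, with Cxcl1 at 335% in croton oil, a value that rests on 28 neutrophil UMIs and drops below 100% under the per-cell neutrophil gate.

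Against macrophages of the microneedle library, the Langerhans level was 0.1995% for Ccl2, 0.0550% for Ccl7, 0.0717% for Ccl8 and 0.339% for Ccr2, where macrophage markers had a median of 0.112% and a range of 0.0287% to 0.713%. All 4 lay inside that range. Microneedle macrophages in turn had Cxcr2 at 5.93% of its neutrophil level, beside a median of 5.99% for the neutrophil markers, with Cxcl3 at 28.2%, Ccl3 at 16.2% and Ccl4 at 26.2%. In the 22 macrophages with Cxcr2, Cxcl3 was found in 90.9%, against 32.3% of the others, at median depths of 11856.5 and 6157.5 UMIs; whether these 22 barcodes hold 2 cells each was not tested beyond the doublet filter.

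Keratinocytes, which in skin are a known source of Cxcl1, had Cxcl1 at 25.4 CPM (21.55 to 29.8) untreated, 86.6 CPM (81.2 to 92.3) after croton oil and 56.3 CPM (48.7 to 64.8) after microneedles, and Cxcl2 at 14.45 CPM (11.6 to 17.8), 121 CPM (115 to 128) and 179 CPM (165 to 194). After croton oil 3 of the 10 genes passed the filter and were at least 2-fold higher (Cxcl1 at 1.59, Cxcl2 at 2.70, Ccl8 at 2.67), where 13% of the 7630 genes tested were higher and 14.1% lower. After microneedles 2 passed and were higher (Cxcl1 at 1.01, Cxcl2 at 3.24), where 7.06% of 7637 were higher and 6.38% lower. Cxcl2 and Ccl8 passed only through the treated library, so nothing is read from these counts. Some of these calls were lost under other settings. The microneedle change of Cxcl1 was 0.86 with the gate at 4% of UMIs, 0.89 with the gate limited to Langerhans-like clusters and -0.017 without the 5 highest cells of each library. Without those cells the croton oil change of Ccl8 was 0.77, and with the gate at 1% of UMIs the gene was under the filter. Of 303 Ccl8 UMIs in croton oil keratinocytes 140 were in 1 cell and 87.5% in 5.

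Set against Langerhans cells, keratinocyte Cxcl2 lay above the range of the Langerhans markers after microneedles. After croton oil it lay inside the range, with only 1 of 8 markers, Epcam, above it. After croton oil keratinocytes had 9.84% of the Langerhans level of Cxcl2, beside a median of 8.06% (6.60% to 25.65%) for 8 Langerhans markers, and after microneedles 27.8% beside 13.7% (9.70% to 22.8%), with 76.3% of the microneedle UMIs in 5 cells. With single keratinocytes gated by markers their microneedle Cxcl2 was at 94.2 CPM. The marker range was not computed for those cells, so whether Cxcl2 stays above it under that gate is not known. Cxcl1 stood above the markers, at 70.1% and 92.6% of the Langerhans level. In the untreated library the order of the 2 ligands was the same, with Cxcl2 at 6.04%, below the marker range of 11.8% to 33.65%, and Cxcl1 higher in keratinocytes than in Langerhans cells. With the gate at 1% of UMIs untreated keratinocyte Cxcl1 was at 8.82 CPM, below the Langerhans level, and Cxcl2 at 7.97 CPM, while Cxcl2 was at 25.6 CPM with the gate at 4% and 25.9 CPM with it limited to Langerhans-like clusters. Microneedle keratinocyte Cxcl1 was at 27.0 CPM with the gate at 1%.

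**Figure D5:**
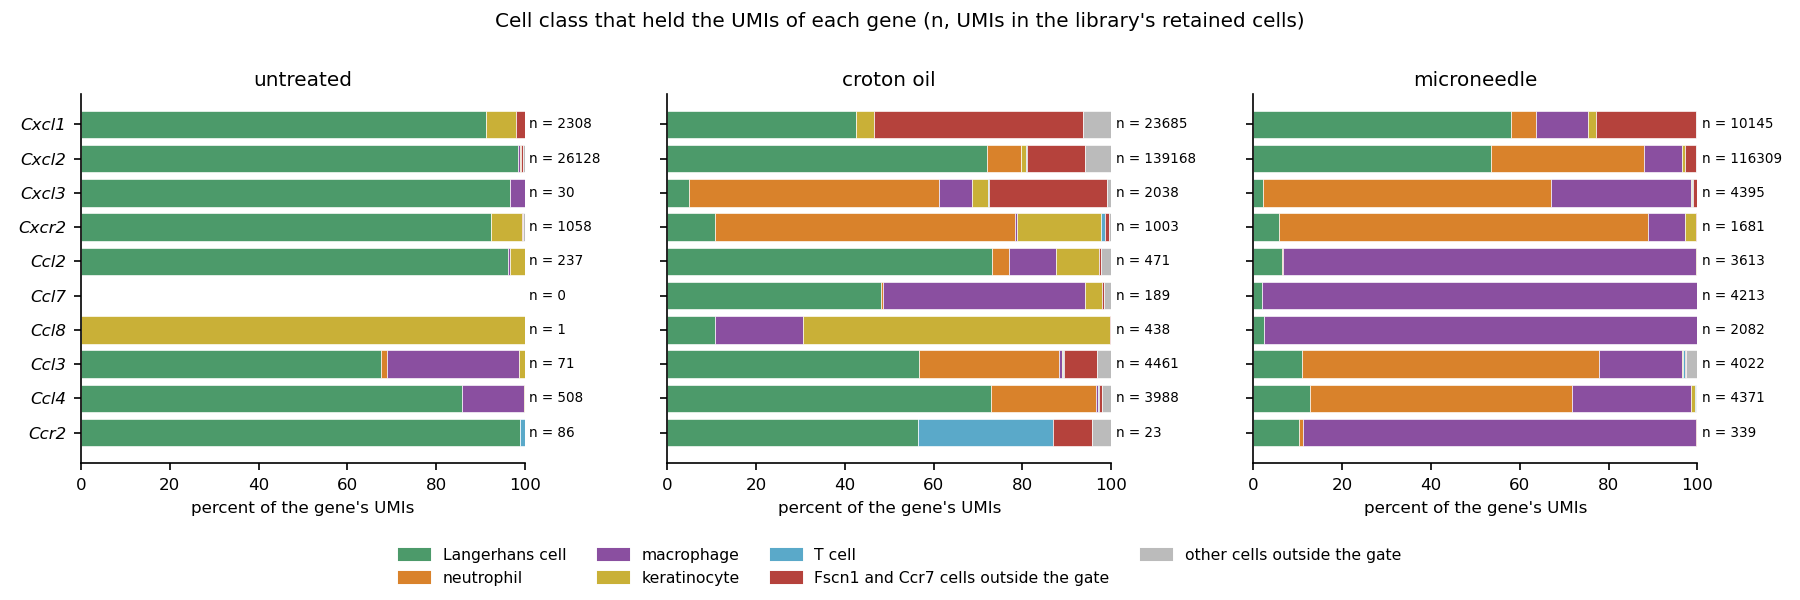
Share of each gene's UMIs held by each cell class in the 3 libraries; bars start at 0 and sum to 100%, and n is the number of UMIs of the gene in the retained cells. Gated Langerhans cells hold most Cxcl1 and Cxcl2 UMIs of the untreated library. The Fscn1 and Ccr7 cells outside the gate hold 46.9% of Cxcl1 in croton oil, and macrophages 93.2% of Ccl2 in the microneedle library.

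Counted over whole suspensions, the sources of the ligands differed between the libraries. Of 56 such shares 32 moved beyond their counting interval without doublet removal and 21 when single cells were gated by markers in place of clusters, so they depend on both choices. The retained cells held 2308 UMIs of Cxcl1 in the untreated, 23685 in the croton oil and 10145 in the microneedle library. Gated Langerhans cells, 95.6%, 77.6% and 81.65% of the retained cells, held 91.3%, 42.4% and 57.95% of them. The Fscn1 and Ccr7 cells outside the gate, 9.68% of croton oil and 2.50% of microneedle cells, held 46.9% and 22.5%. Both Cxcl1 shares depend on where the gate cuts the Fscn1 and Ccr7 cluster. Neutrophils held 0.118% after croton oil and 5.60% after microneedles. For Cxcl2, with 26128, 139168 and 116309 UMIs, Langerhans cells held 98.5%, 72.0% and 53.5%, and neutrophils 7.70% after croton oil and 34.6% after microneedles, where they were 6.11% of the cells.

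The receptor was found with the infiltrate. Of the Cxcr2 UMIs, 92.3% lay in Langerhans cells of the untreated library (977 of 1058), 10.8% in those of croton oil and 5.77% in those of microneedle, while neutrophils held 67.6% and 83.0% in the treated libraries and keratinocytes 18.9% after croton oil. Without doublet removal the treated Langerhans shares were 23.8% and 17.4%. Cxcl3 came from neutrophils (56.4% and 64.8%), with 26.6% in Fscn1 and Ccr7 cells after croton oil and 31.7% in macrophages after microneedles. Neutrophils, which held most of the receptor's UMIs in the treated libraries, also had the highest levels of Cxcl2 and Cxcl3 among classes of at least 50 cells.

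For the monocyte attractants, microneedle macrophages, 5.93% of the cells, held 93.2% of 3613 Ccl2 UMIs, 97.9% of 4213 Ccl7 UMIs, 97.4% of 2082 Ccl8 UMIs and 88.5% of 339 Ccr2 UMIs. In croton oil the totals were 471, 189, 438 and 23. There Langerhans cells, 77.6% of the cells, held 73.25% of Ccl2. Langerhans cells and the 6 macrophages held 48.15% and 45.5% of Ccl7, and keratinocytes 69.2% of Ccl8. Of the 91 Ccl7 UMIs of these Langerhans cells 73 were in 1 cell. Of Ccl3, Langerhans cells held 56.6% in croton oil and 11.0% in microneedle, and neutrophils 31.6% and 66.8%; of Ccl4, Langerhans cells held 72.9% and 12.9% and neutrophils 23.6% and 59.0%. Without doublet removal the microneedle Langerhans shares of Ccl3 and Ccl4 were 20.5% and 24.5%. In croton oil Langerhans cells thus held most Ccl3 and Ccl4 UMIs of the suspension, and in microneedle the neutrophils held most. In croton oil 1% of Langerhans cells held 58.1% of the Langerhans UMIs of Ccl3 and 66.3% of those of Ccl4.

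Other genes of these pathways were counted from 5 lists. Of 11 further neutrophil attractants and receptors (Cxcl5, Ppbp, Pf4, Csf3 and receptors such as Fpr1, C5ar1 and Csf3r) none reached 20 CPM in Langerhans cells of any library, while 6 of 11 did in neutrophils of each treated library. Of 15 further monocyte attractants and receptors 2 passed in croton oil Langerhans cells and 1 was at least 2-fold higher, where 5.48% of all genes tested were: Ccr1, a receptor of Ccl3, at 77.7 CPM against 5.42 CPM untreated (2.99). Ccr1 passed only through its croton oil level, so the filter fixed its direction. After microneedles 1 passed and was higher, where 3.91% of all genes tested were, Csf1r, the receptor of the growth factor on which Langerhans cells depend, at 622 against 302 CPM (1.03). Neutrophils had Ccr1 at 955 and 1012 CPM and macrophages at 279 CPM.

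Of 18 chemokines and receptors of lymphocytes and dendritic cells 4 passed in croton oil Langerhans cells, of which 2 were higher, beside 5.48% of all genes tested, Cxcl16 at 755 against 301 CPM (1.31) and Ccr7, which guides cells to lymph nodes, at 21.45 against 0.855 CPM (2.18). After microneedles 2 passed and 1 was lower, beside 1.76% of all genes tested, Ccl17 at 3.87 against 26.8 CPM (-1.84). Ccr7 passed only through croton oil and Ccl17 only through the untreated library, so their directions were fixed by the filter. Of 5 scavenging receptors 1 passed for each treatment and none was called. Of 13 inducers of these chemokines and their brakes 9 passed for each treatment, with 1 higher and 1 lower in each, beside 5.48% higher and 5.48% lower of all genes tested after croton oil and 3.91% and 1.76% after microneedles. Il1b, a cytokine that induces Cxcl1 and Cxcl2 in skin, was higher in Langerhans cells of both treated libraries, at 691 CPM after croton oil and 341 CPM after microneedles against 73.8 CPM (3.14 and 2.13). Tnf was lower in both, at 267 and 264 against 606 CPM (-1.17 and -1.18). The other 7 that passed were not called for either treatment.

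Between the 2 treated libraries, Ccr1 (1.96), Ccr7 (1.63) and Il1b (1.01) were at least 2-fold higher in croton oil than in microneedle Langerhans cells, beside 1.58% of all genes tested; Ccr1 and Ccr7 passed only through croton oil. In neutrophils, where microneedle was set against croton oil, 4 of the 10 inducers and brakes that passed were higher and none lower, beside 11.5% and 11.8% of all genes tested: Il1a (132 against 6.58 CPM, 3.57), Il1b (8983 against 2800, 1.68), and the NF-kappaB-induced Nfkbiz (1.77) and Tnfaip3 (1.48). Csf3, which encodes the neutrophil growth factor G-CSF, was also higher (81.8 against 2.63 CPM, 3.51), as were Csf1 (1.43), Cxcl10 (3.29) and Ccrl2 (1.24), and Cxcr1 (-1.26), Ltb4r1 (-1.25), Ccl6 (-1.59) and Ccl9 (-2.14) were lower. Il1a, Csf3 and Cxcl10 passed only through the microneedle library and Cxcr1 only through croton oil, so the filter fixed the direction of these 4. In keratinocytes, where 13% of all genes tested were higher and 14.1% lower after croton oil and 7.06% and 6.38% after microneedles, Il1b was higher (1.56 and 2.13) and Tnf lower (-2.20 and -1.14), the same directions as in Langerhans cells, whose markers the keratinocytes also held; the part of those markers' source in these values was not tested. Ltb4r1, a leukotriene B4 receptor, was higher in both (2.03 and 1.22), and Ccl6 (-3.11 and -2.19) and the skin T cell attractant Ccl27a (-2.16 and -1.52) lower. After croton oil Ackr3 was also higher (1.34) and Ackr4 (-1.63), Ccrl2 (-1.27) and Il1rn (-1.50) lower, and after microneedles Ccl20 was higher (1.40). Among these keratinocyte genes Il1b, Ltb4r1 and Ccl20 passed only through the treated libraries, Ccl6 for both treatments only through the untreated one, and so did Tnf, Ccl27a, Ackr4 and Il1rn for croton oil, which fixed their directions.

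The genes whose pattern was most like that of each member were found by Pearson's r of log2(CPM + 5) over the 12 combinations of class and library with at least 50 cells, among 10756 genes. These points share libraries and classes, so r is a description. Cxcl2 was most like Il1b (r = 0.965), and Cxcl1 most like Txnrd1 (0.90), the lowest of the 10 best matches. Cxcl3 was most like Lilrb4a (0.99), Cxcr2 like Sorl1 (0.98), Ccl2 like F13a1 (0.99), Ccl8 like Sdc3 (0.95), Ccl3 like C130050O18Rik (0.98), Ccl4 like Cd14 (0.98) and Ccr2 like AI504432 (0.98). For Ccl7 the 3 best matches all exceeded 0.99, with Eya4 and Ccl12 first; the gene had a level over 3 CPM in 1 of the 12 combinations only.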

How the data were processed

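The authors deposited counts of UMIs per gene and cell for 3 libraries, made with Cell Ranger 8.0 on GRCm39, per the submitters' processing notes; the matrices name version 8.0.0, per the file headers. They are raw counts, so a 3' assay and free RNA bear on every level. Cells with at least 500 genes and at most 10% mitochondrial UMIs were kept. Scrublet's automatic threshold marked 4, 0 and 5 cells, so the highest scores were removed at 0.8% per 1000 cells (773, 532 and 376 cells). Cells were clustered jointly (scanpy 1.11.5, leidenalg 0.10.2, Python 3.11.15; 2000 variable genes without the 10 members and their lists, 30 components, 15 neighbours, resolution 0.5), with no correction between libraries. UMIs were summed per class and library; TMM factors came from edgeR 4.0.16 in R 4.3.3. The calculations were checked on simulated counts. The ratios of levels between classes used markers with at least 100 CPM that were highest in the source class. All 10 members are named, and pathway genes where they passed the filter and the 2-fold line. Members, lists and rules were chosen with earlier results of these data known. In addition 4 alternatives were chosen after seeing the data: without gate cells of the Fscn1 and Ccr7 cluster, without heat-shock clusters, without shared barcodes and without the 5 highest cells.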

Additional observations from a re-analysis of the deposited data

How the results depend on the processing

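With 1 library per treatment, no setting measures the spread between animals. Counts of members in Langerhans cells moved by over 1.5 times under 4 settings. With the filter at 50 CPM, 2 members in place of 4 were at least 2-fold higher after croton oil, because Ccl3 and Ccl4 no longer entered, and 0 in place of 2 were higher in croton oil than in microneedle. That last count was 4 with TMM factors and 1 without the heat-shock clusters. With no filter, 1 member was at least 2-fold lower after croton oil and 1 after microneedles, in both cases Cxcr2 (-1.15 and -1.23). For single genes, the keratinocyte change of Cxcl1 after microneedles was -0.017 without the 5 highest cells. The neutrophil difference of Ccl2 between microneedle and croton oil was -1.62 as reported and 2.69 under the per-cell gate, and the cause of that change was not tested. Without the 5 highest cells it was 0, a value fixed by the setting, because those cells held all Ccl2 UMIs of both libraries. TMM factors moved the median of all genes by 0.10 for croton oil and -0.03 for microneedle against untreated. Of 56 shares of a member's UMIs by class, 32 moved without doublet removal, 21 under the per-cell gate, 3 at resolution 1 and 1 at 5% mitochondrial UMIs. Under the per-cell gate Cxcl2 in microneedle keratinocytes was 94.2 in place of 179 CPM. Where Ccl7 and Ccl8 had no UMI, depth limits the statement to the upper bound given. No paired analysis was possible because each group has 1 library.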

Other observations

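In microneedle macrophages, the monocyte attractants outside the members ranged widely: Ccl6 was at 1133 CPM, Ccl9 at 852 CPM and Ccl12 at 573 CPM, but Ccl5 at 29.9 CPM, Ccl24 at 16.0 CPM and Ccl11, Cx3cl1 and Cxcl12 at 0, which allows up to 1.31 CPM each. Pf4 was at 3417 CPM. In the Fscn1 and Ccr7 cells outside the gate, Ccl22 was at 1177 CPM after croton oil and 1482 CPM after microneedles, Ccl17 at 381 and 146 CPM, and Ccl5 at 85.45 and 223 CPM. Ccr7 was at 1120 and 1202 CPM there. These classes held 384 macrophages and 738 and 162 Fscn1 and Ccr7 cells.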
